A study of Homo sapiens
Mus musculus and Mus musculus and Homo sapiens with 16 samples.

Results

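MS-5 cells are a mouse bone marrow stromal cell line. When REC-1 cells, a human mantle cell lymphoma (MCL) line, adhered to them, MS-5 cells held less mRNA of Hmox1 and, by smaller amounts, of several other targets of the transcription factor NRF2. Hmox1 averaged 280 CPM (its count scaled to the depth of the library) ± 25.03 (SD, n = 4) in MS-5 cells alone and 155 ± 22.3 in the coculture, a level 44.4% lower. Gclm, Gclc, Nqo1, Txnrd1 and Srxn1 were between 20.3% and 29.8% lower, and for these 5 genes as for Hmox1 every coculture library lay below every MS-5 library, as for 3.68% of all mouse genes tested. The genes were listed with these values known, so the pattern is a description of them and not a finding about the group. Slc7a11, Gsr, Prdx1 and Sqstm1 overlapped between the groups. In REC-1 cells themselves, none of the human genes of the same names passed the test between any pair of conditions.

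The genes described are 10 NRF2 targets, listed by symbol, of the 49671 genes in the mouse count table. The genes were chosen by symbol with their counts in MS-5 cells alone and in coculture already known, so in that comparison the values of the 10 genes are a description and no test is given for them. The human genes were not used to choose the list and were tested. Both tables hold whole counts of fragments per gene. CPM, the depth-scaled count, used TMM scaling of the library sizes, and RPKM are these values divided by the exon length of the gene in kilobases.

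There were 16 libraries, with 4 replicates of every condition. The conditions were MS-5 cells alone, REC-1 cells in monoculture (Sep), the REC-1 cells that floated free over the stroma in coculture (Susp), and the adherent layer of the coculture (Adh). The labels name no drug and no engineered allele in any group. MS-5 cells were seeded at 500000 per dish, 5000000 REC-1 cells were added 24 h later, and RNA was taken after another 24 h from mono- and cocultures kept in one medium. An Adh library holds RNA of both species, so its mouse counts describe MS-5 cells under adhered lymphoma cells and its human counts describe the adhered REC-1 cells. Each species is represented by 1 cell line, and the study describes its RNA-seq replicates of lymphoma cells as independent experiments, while the labels do not say what separates the replicates.

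The libraries of MS-5 cells alone held 10097555 to 17397651 mouse counts, those of Adh 29495404 to 34615602, and human counts lay between 7758979 and 21467832. Of the 8 stromal markers, 7 were detected in MS-5 cells (Col1a1, Col1a2, Col3a1, Pdgfra, Pdgfrb, Vcam1 and Cxcl12) and Thy1 had no count in any library. Their summed level was 3428 to 3722 CPM alone and 3596 to 4090 CPM in Adh. The mouse leukocyte markers summed to at most 0.398 CPM alone and 0.431 CPM in Adh, with Ptprc, Cd79b, Pax5 and Cd37 at 0 everywhere. Macrophage markers summed to 5.02 to 6.37 CPM alone and 5.38 to 7.91 CPM in Adh, with Adgre1 and Itgam at 0, and endothelial markers to at most 0.116 and 0.177 CPM, with Cdh5 and Kdr at 0. In bulk RNA, fewer cells making a transcript and less transcript per cell cannot be told apart.

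NRF2, encoded by Nfe2l2, is a transcription factor that KEAP1 binds in the cytoplasm and passes to a CUL3 ubiquitin ligase for degradation. Oxidants and electrophiles modify KEAP1, whereupon NRF2 accumulates, pairs with small MAF proteins and binds antioxidant response elements near genes for glutathione synthesis, thioredoxin recycling, quinone reduction and heme breakdown. BACH1 occupies the same elements as a repressor and is released by heme. In bone marrow, stromal cells are known to supply lymphoid cells with cysteine, which those cells need for glutathione.

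Because Adh libraries mix species, the mouse and human transcripts of each gene were compared for stretches that are identical in both. Of the distinct 25-base words in the mouse transcripts, the share also present in the human transcripts of the same gene was 0.116% for Hmox1, 0.196% for Nqo1, 0.458% for Srxn1, 0.642% for Slc7a11, 0.853% for Txnrd1, 1.39% for Sqstm1, 1.74% for Gclm, 2.16% for Prdx1, 2.53% for Gsr and 3.59% for Gclc. Hmox1 had the least shared sequence of the 10 genes. Its longest run of coding sequence identical in both species was 26 bases (coding positions 16 to 41), against 65 bases in Gsr (220 to 284), the longest among the 10 genes, 59 in Gclm (394 to 452), 56 in Gclc (1660 to 1715), 52 in Slc7a11 (581 to 632) and 45 in Prdx1 (520 to 564). The runs are shorter than the sequenced reads, so a read across one of them also covers bases outside it. Those of 4 genes are shown, as the places where the species were most alike in the coding sequence of Hmox1 and Gclm, of Slc7a11, which had the most human counts beside its mouse counts, and of Prdx1, whose groups overlapped. They were read from GENCODE transcripts, are given on the coding strand from 5′ to 3′, and positions count from 1 at the start codon.
Hmox1: cccgacagcatgccccaggatttgtc
Gclm: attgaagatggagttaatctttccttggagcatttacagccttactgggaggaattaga
Slc7a11: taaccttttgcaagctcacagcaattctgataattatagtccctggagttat
Prdx1: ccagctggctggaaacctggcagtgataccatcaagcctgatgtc

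The human counts assigned to the same gene in the same Adh library were 0.428% to 1.72% of the mouse counts for Hmox1, 0.857% to 1.62% for Nqo1 and at most 0.0185% for Srxn1. They were 4.90% to 9.58% for Sqstm1, 8.63% to 16.1% for Gclm, 9.23% to 16.4% for Prdx1, 12.6% to 20.6% for Txnrd1, 14.0% to 23.4% for Gsr and 15.9% to 35.3% for Gclc. For Slc7a11 they were 74.9% to 189%, the highest of the 10. Whether reads assigned to the wrong species moved any of these values was not tested.

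Heme breakdown is represented by Hmox1 (ENSMUSG00000005413, GRCm38 chromosome 8, 75093621 to 75100589), which encodes heme oxygenase 1, the inducible enzyme that opens heme to biliverdin, carbon monoxide and iron. Its levels in MS-5 alone were 297, 301, 275 and 246 CPM in replicates 1 to 4, and in Adh 179, 170, 134 and 138 CPM. The highest Adh library therefore lay well below the lowest MS-5 library. The fitted log2 fold change was -0.85 (SE 0.09), the largest of the 10 genes in size. Replicates 1 and 2 were the higher ones in both groups, and the human share of the counts in Adh was 28.2%, 26.0%, 18.3% and 20.2% in replicates 1 to 4, so the 2 Adh libraries with more human counts also held more Hmox1 than the other 2. The part of the human share in the Hmox1 values was not tested. With all libraries thinned to the depth of the smallest, the log2 fold change was -0.85, and without any 1 library it stayed between -0.92 and -0.78.

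Glutathione synthesis starts with glutamate cysteine ligase, whose modifier subunit is Gclm (ENSMUSG00000028124, chromosome 3, 122245557 to 122270732) and whose catalytic subunit is Gclc (ENSMUSG00000032350, chromosome 9, 77754535 to 77794485). Gclm was at 148, 143, 142 and 138 CPM in MS-5 alone and at 109, 108, 107 and 107 CPM in Adh. It was the steadiest of the 10 genes in coculture, with a coefficient of variation of 0.985% there and 2.88% alone, and the groups did not overlap. Its log2 fold change was -0.41 (SE 0.05), or 24.5% lower. Gclc measured 166, 164, 154 and 157 CPM alone and 130, 117, 134 and 118 CPM in Adh, again without overlap, with a log2 fold change of -0.36 (SE 0.06), or 22.2% lower. Both subunits of the enzyme were thus lower by similar amounts.

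Slc7a11 (ENSMUSG00000027737, chromosome 3, 49892526 to 50443614, minus strand) encodes the cystine importer that feeds this pathway. It was at 10.7, 5.37, 9.03 and 8.29 CPM alone and at 9.27, 8.10, 9.95 and 8.52 CPM in Adh. MS-5 replicate 2 was the low library and replicate 1 the high one, and all Adh values fell between them. The log2 fold change of 0.08 (SE 0.16) turned to -0.06 without MS-5 replicate 2. Only 54 to 156 fragments per library lay behind the MS-5 values and 238 to 346 behind those of Adh, which limits what could be seen for this gene.

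Gsr (ENSMUSG00000031584, chromosome 8, 33652523 to 33698163), glutathione reductase, returns oxidized glutathione to its reduced form. Its libraries stood at 113, 116, 113 and 104 CPM alone and 102, 108, 104 and 99.1 CPM in Adh. The groups overlapped, since MS-5 replicate 4 fell inside the Adh range. The log2 fold change was -0.11 (SE 0.06), a mean 7.53% lower.

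Thioredoxin recycling and peroxide removal were represented by Txnrd1, Srxn1 and Prdx1. Txnrd1 (ENSMUSG00000020250, chromosome 10, 82833951 to 82897712) is the cytosolic thioredoxin reductase and was at 679, 707, 704 and 616 CPM alone and 566, 568, 531 and 490 CPM in Adh. Replicate 4 was the lowest in both groups, and the groups did not overlap (log2 fold change -0.33, SE 0.06). Srxn1 (ENSMUSG00000032802, chromosome 2, 152105516 to 152111376), the sulfiredoxin that repairs overoxidized peroxiredoxins, gave 445, 450.0, 451 and 437 CPM alone and 364, 364, 345 and 344 CPM in Adh. Its libraries were tightly grouped, with coefficients of variation of 1.43% and 3.23%, and did not overlap (log2 fold change -0.33, SE 0.04).

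Prdx1 (ENSMUSG00000028691, chromosome 4, 116685544 to 116700822), a peroxiredoxin that removes hydrogen peroxide, was at 724, 647, 654 and 636 CPM alone and 692, 618, 669 and 657 CPM in Adh. Replicate 1 was the highest in both groups, and the ranges lay over each other. Its log2 fold change was -0.01 (SE 0.05) and changed sign in 3 of 15 alternative settings.

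Quinone reduction was represented by Nqo1 (ENSMUSG00000003849, chromosome 8, 107388225 to 107403206), which encodes NAD(P)H quinone dehydrogenase 1, a gene often used as a readout of NRF2. Nqo1 was at 131, 133, 118 and 111 CPM alone and 94.6, 92.1, 87.3 and 72.3 CPM in Adh. The groups did not overlap, and as for Hmox1 replicates 1 and 2 were the higher ones in both. The log2 fold change was -0.51 (SE 0.08), or 29.8% lower, which ranked after Hmox1 among the 10 genes.

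Sqstm1 (ENSMUSG00000015837, chromosome 11, 50199366 to 50210827, minus strand) encodes p62, the autophagy receptor that can draw KEAP1 away from NRF2. It was at 506, 481, 535 and 536 CPM alone and 434, 439, 452 and 497 CPM in Adh. Only Adh replicate 4 reached into the MS-5 range, where it lay above MS-5 replicate 2. The log2 fold change was -0.18 (SE 0.05), or 11.5% lower.

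**Figure D1:**
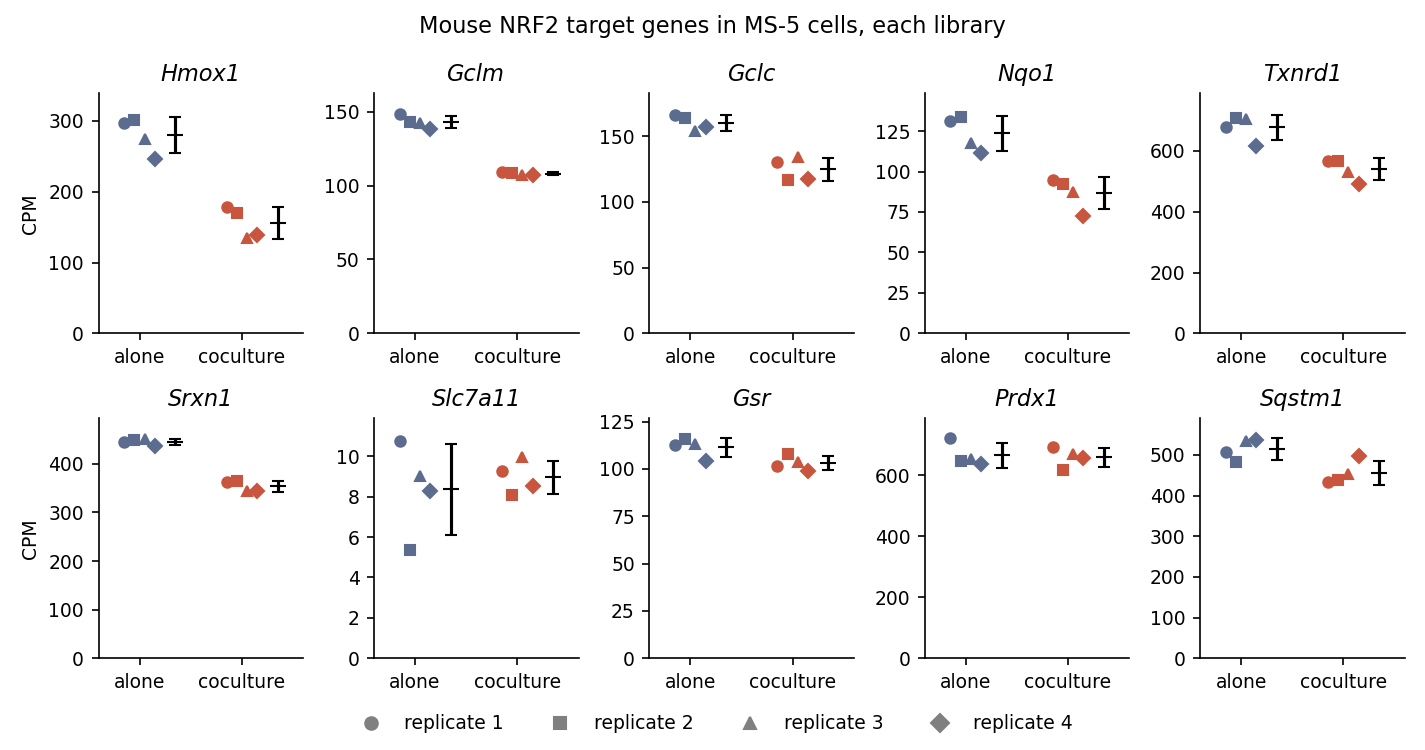
CPM (y axis, from 0, one scale per gene) of the 10 mouse NRF2 targets in each of 4 libraries of MS-5 cells alone and 4 of MS-5 cells in coculture (Adh), with symbols for the replicate number and black bars for the mean ± SD. Hmox1 lies at 246 to 301 CPM alone and at 134 to 179 CPM in coculture, while the points of Prdx1, Slc7a11, Gsr and Sqstm1 overlap.

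Across the 10 genes, 9 had a negative fitted log2 fold change (8 without the filter on low counts, where Prdx1 turned positive) and the median was -0.33, beside -0.0017 over all 12201 mouse genes tested. All 10 passed the filter on low counts. Coculture libraries lay below all MS-5 libraries for 6 of the 10, as they did for 3.68% of all tested genes (449 genes, against 373 or 3.06% in the higher direction). Over all tested genes, 70 or 0.574% were lower in the edgeR quasi-likelihood fit at a Benjamini-Hochberg adjusted p of at most 0.05. In the higher direction there were 24 genes or 0.197%. With a fold change of at least 1.5 required as well, 20 genes or 0.164% were lower. The 10 genes were fitted with the rest, and no test is given for them. Since they were listed for this pattern, nothing is read from their counts.

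Levels of different genes can be compared per length. In MS-5 cells alone Prdx1 was highest at 219 RPKM, followed by Hmox1 (160 ± 14.3 RPKM), Srxn1 (158) and Sqstm1 (153), which differed from each other by less than the SD of Hmox1. Txnrd1 (95.5 RPKM) and Nqo1 (79.5) came next, then Gclc (42.5) and Gsr (40.5), Gclm (22.7) and, far below, Slc7a11 (0.600). In Adh, Hmox1 stood at 88.7 ± 12.8 RPKM, now below Sqstm1 (136) and Srxn1 (126) and overlapping in its spread with Txnrd1 (76.1). Gsr (37.4 RPKM) and Gclc (33.1) changed places, while Prdx1 remained highest at 217 RPKM and Slc7a11 lowest at 0.644.

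**Figure D2:**
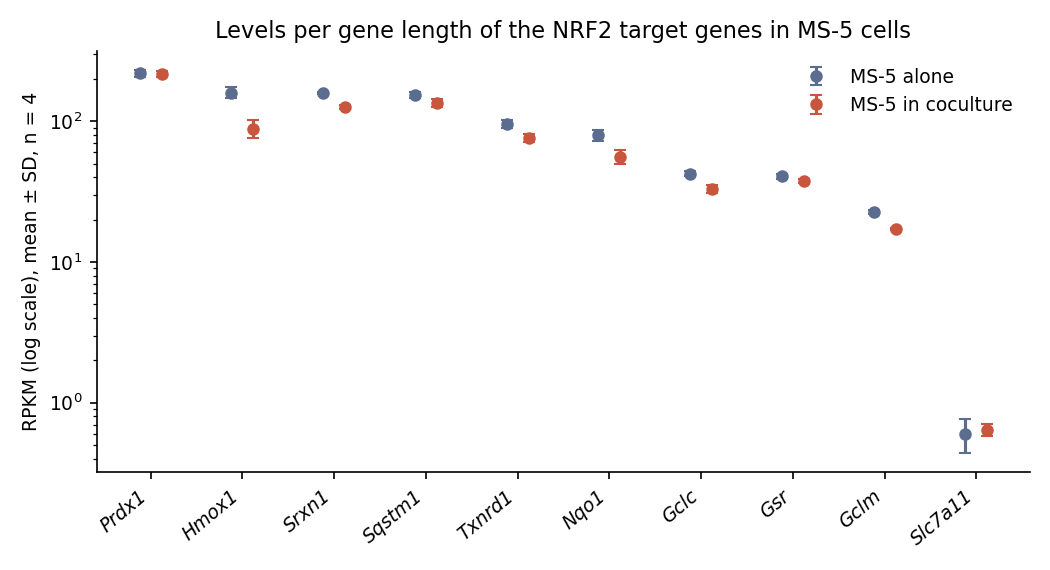
Levels per exon length (RPKM, log scale) of the 10 mouse NRF2 targets in MS-5 cells alone and in coculture, as mean ± SD of 4 libraries and ordered by the level in MS-5 cells alone. Hmox1 is at 160 RPKM alone, level with Srxn1 and Sqstm1, and at 88.7 RPKM in coculture, while Slc7a11 is near 0.6 RPKM in both groups.

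The other genes of the pathway were taken from a list of 38 further NRF2 targets and 10 regulators. The list was chosen with earlier results of these data known, so its counts are no independent test. None of the 45 that were tested was called at the adjusted p together with the fold minimum in edgeR. At an unadjusted edgeR p under 0.05 there were 8 targets and 3 regulators lower and 1 target higher. The share of all genes at that level was not counted, so nothing is read from these counts. At the adjusted p alone 3 fell and none rose, against 0.574% and 0.197% of all genes tested. DESeq2 put 6 lower and none higher at the adjusted p alone. Over all mouse genes 254 passed in DESeq2 in either direction, against 94 in edgeR. Among the 35 targets tested, 29 had a negative and 6 a positive log2 fold change with a median of -0.09, and the genes fell into 5 roles with medians of -0.17 (glutathione synthesis and conjugation, 9 tested), -0.07 (thioredoxin and peroxide removal, 5), -0.09 (NADPH supply, 6), -0.14 (heme and iron handling, 6) and -0.06 (carbonyl and quinone reduction, 9). Ggt1, Gsta2 and Gpx2 were too low to test.

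Since no gene was called with the fold minimum, the ones named next were picked after their values were seen. Gsta4, a glutathione transferase for lipid aldehydes, fell from 89.2 ± 7.62 to 67.3 ± 6.65 CPM (log2 fold change -0.41, SE 0.08, edgeR adjusted p = 0.0236). Pgd, which makes NADPH in the pentose phosphate pathway, fell from 399 ± 12.3 to 332 ± 5.71 CPM (-0.26, SE 0.04, edgeR adjusted p = 0.0116). The groups did not overlap for either gene. Without MS-5 replicate 3 neither passed, with edgeR adjusted p of 0.114 for Gsta4 and 0.0627 for Pgd, and Gsta4 did not pass without MS-5 replicate 1 (0.0554) or 4 (0.0598) or Adh replicate 3 (0.0658) or 4 (0.0651) either.

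In heme and iron handling, Fth1, the ferritin heavy chain that stores iron, was at 4469 ± 204 CPM alone and 3901 ± 111 CPM in Adh without overlap (log2 fold change -0.20), but at an edgeR adjusted p of 0.0523 it did not pass. Blvra, biliverdin reductase, which acts just after heme oxygenase, was the one listed target whose Adh libraries all lay above the MS-5 libraries, at 39.3 ± 3.44 CPM alone and 46.0 ± 2.17 CPM in Adh (log2 fold change 0.22, edgeR adjusted p = 0.241). Of the 35 targets tested, 3 did not overlap in the lower direction (Gsta4, Pgd and Fth1) and 1 in the higher, beside 3.68% and 3.06% of all genes.

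Of the 10 regulators, 1 passed at the adjusted p alone, and the genes for NRF2 and for its degradation were not among those that passed. Nfe2l2 itself was at 189 ± 11.4 CPM alone and 196 ± 16.5 CPM in Adh (log2 fold change 0.05, edgeR adjusted p = 0.825). Keap1 (83.8 and 80.3 CPM), Cul3 (169 and 176 CPM), Rbx1 (99.1 and 97.2 CPM), the related factor Nfe2l1 (343 and 322 CPM) and the repressor Bach1 (43.5 and 45.2 CPM) had log2 fold changes of -0.06, 0.07, -0.03, -0.09 and 0.05, with edgeR adjusted p between 0.513 and 0.908. Those of Nfe2l2, Keap1 and Bach1 changed sign when single libraries were left out.

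Among the small MAF partners of NRF2, Maff was at 39.1 ± 2.77 CPM alone and 29.3 ± 4.02 CPM in Adh, and Mafg at 72.2 ± 3.52 and 61.0 ± 2.82 CPM. Neither overlapped between the groups, and neither passed in edgeR, with log2 fold changes of -0.42 and -0.24 and edgeR adjusted p of 0.0584 and 0.0968. In DESeq2 both passed, at adjusted p of 0.0045 for Maff and 0.0186 for Mafg. Maff also passed in edgeR without Adh replicate 2 (adjusted p = 0.0083), with thinned counts (0.0406) and without the low-count filter (0.0010). With the replicate number as a term both passed in edgeR (adjusted p of 0.0058 and 0.0321). Over all settings their adjusted p reached 0.219 and 0.295. Mafk gave -0.24 with overlapping libraries (edgeR adjusted p = 0.448). Trim16, a TRIM family protein on the list of regulators, fell to 33.1 ± 1.57 CPM in Adh (log2 fold change -0.41, SE 0.07, edgeR adjusted p = 0.0147). It did not pass without MS-5 replicate 2, 3 or 4 (edgeR adjusted p of 0.0579, 0.0880 and 0.0573) or with thinned counts (0.0621).

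Slc7a11 and some other NRF2 targets are also induced by ATF4, the transcription factor of the amino acid stress response, and Hmox1 also by heat shock and metals. The ATF4 list, too, was chosen with earlier results of these data known, so its counts are no independent test. All 11 listed ATF4 genes had a negative log2 fold change, with a median of -0.37. At the adjusted p alone 3 of them fell, against 0.574% of all genes tested, and none was called with the fold minimum. These were Phgdh and Psat1, which make serine, and Asns, which makes asparagine, with log2 fold changes of -0.45, -0.44 and -0.38 (SE 0.07, 0.08 and 0.07) and edgeR adjusted p of 0.0097, 0.0141 and 0.0155. None of the 3 passed without MS-5 replicate 3 (edgeR adjusted p of 0.0552, 0.0728 and 0.0896) or without MS-5 replicate 4 (0.0529, 0.0655 and 0.0640). Slc3a2, the chain that pairs with Slc7a11 in the cystine importer, gave -0.30 without overlap (edgeR adjusted p = 0.105), and Atf4 itself -0.19 (edgeR adjusted p = 0.443). None of the 4 metallothionein and HSP70 genes passed at the adjusted p. Mt1 was at 24.3 CPM alone and 23.5 CPM in Adh (log2 fold change -0.05), and the HSP70 gene Hspa1b at 66.6 ± 22.1 and 40.4 ± 12.1 CPM (-0.72, edgeR adjusted p = 0.163). The HSP70 gene Hspa1a was low, at 2.03 and 1.07 CPM (-0.91, edgeR adjusted p = 0.271), as was Mt2, at 1.93 and 2.16 CPM (0.16). All 4 genes overlapped between the groups.

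**Figure D3:**
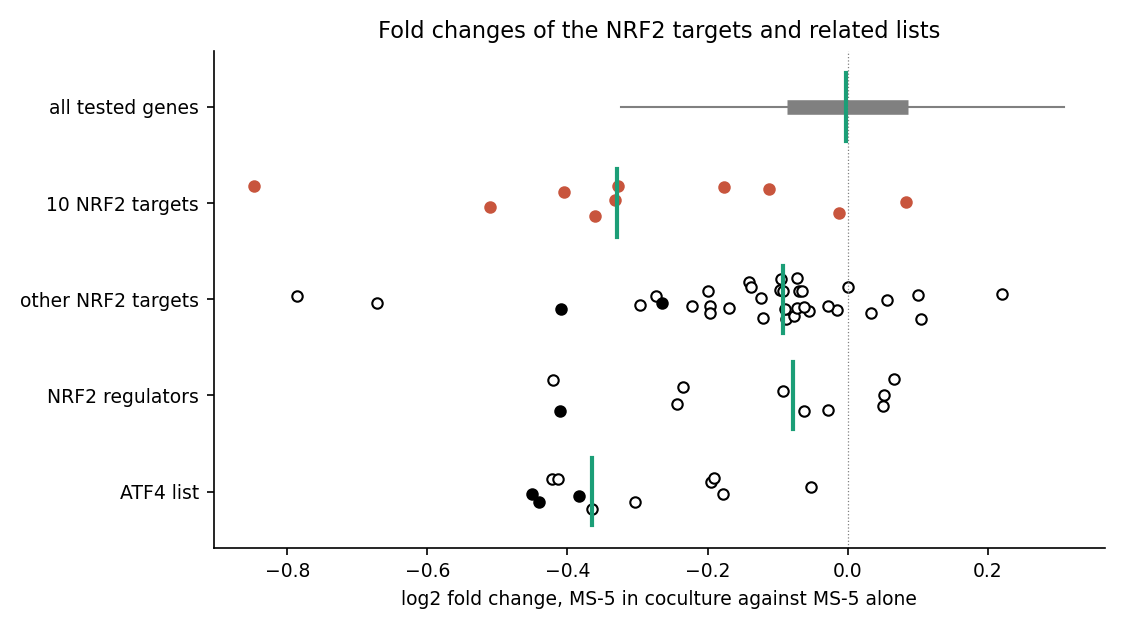
Log2 fold changes (x axis) of MS-5 cells in coculture against MS-5 cells alone, with 1 point per gene, for the 10 NRF2 targets (red, described without a test), the other NRF2 targets, the regulators and the ATF4 list (black, edgeR adjusted p of at most 0.05; open, not passed). Green lines are medians, and for all 12201 tested genes the thick bar spans percentiles 25 to 75 and the thin line 5 to 95. Hmox1 lies at -0.85. The medians lie at -0.33 for the 10 targets, -0.09 for the other targets, -0.08 for the regulators and -0.37 for the ATF4 list.

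The genes whose levels followed Hmox1 most closely were sought among 8817 genes with a mean of at least 10 CPM, by Pearson correlation of log2 CPM over the 8 mouse libraries. They were Prl2c3 (r = 0.992), Srxn1 (0.983), Ccl7 (0.979), Plagl2 (0.972) and Gclm (0.964), so 2 of the 5 were other NRF2 targets of the list. Prl2c3, a member of the proliferin family, averaged 554 CPM alone and 242 CPM in Adh, and its near-identical family members can share reads. Ccl7, a chemokine for monocytes, averaged 190 and 138 CPM. For Gclm the closest were Slc48a1 (0.988), Pgd (0.987), Srxn1 (0.985), Spaca6 (0.984) and Flcn (0.983). Slc48a1, a heme transporter, averaged 694 CPM alone and 555 CPM in Adh. The points of each correlation share the libraries and the group difference, so the values only describe likeness in this experiment. Srxn1, Gclm and Pgd were listed with earlier results of these data known. Finding them among the closest genes is therefore no independent support.

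In REC-1 cells the same genes were present at other levels, and the B cell and MCL markers MS4A1, CD79A, CD79B, PAX5 and CCND1 were expressed. As mouse and human tables were scaled separately, levels of the species are given side by side only. HMOX1 was at 2.55 RPKM in adhered REC-1 cells, where mouse Hmox1 was at 88.7, and NQO1 at 1.24 where Nqo1 was at 55.7. SRXN1 had 0 to 2 counts per Adh library and was not tested, at a mean of 0.0882 CPM, where mouse Srxn1 averaged 354 CPM. PRDX1 was the highest of the human genes too, at 160 RPKM in Adh, followed by TXNRD1 (43.2 RPKM), and SLC7A11 reached 3.69 RPKM where Slc7a11 was at 0.644.

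The question in REC-1 cells was whether adhesion or coculture went with a different level of any of these genes. Of the 9 that could be tested, none was called between Adh and Susp, between Susp and Sep or between Adh and Sep in edgeR, where 0.778%, 0.731% and 2.40% of the 12861 human genes were called in either direction. At the adjusted p alone the count was also 0 for each, against 0.941%, 1.02% and 3.41% of all genes, and 0 in DESeq2. At an unadjusted edgeR p under 0.05 there was 1 gene for Adh against Susp (TXNRD1), 0 for Susp against Sep and 1 for Adh against Sep (PRDX1). How many of all human genes reached that level was not counted, so nothing is read from these counts. The median log2 fold changes of the 9 genes were 0.08, 0.03 and 0.08.

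HMOX1 was at 6.61, 7.36, 9.83 and 7.18 CPM in Sep, 5.97, 9.47, 5.70 and 5.37 CPM in Susp and 7.82, 6.16, 2.57 and 6.93 CPM in Adh. The libraries overlapped throughout, with Susp replicate 2 high and Adh replicate 3 low. The log2 fold change was -0.15 for Adh against Susp (95% interval -0.77 to 0.46, edgeR adjusted p = 0.785) and -0.37 for Adh against Sep (-0.99 to 0.25, edgeR adjusted p = 0.483). These intervals reach below -0.58, so a fall of 1.5 times in REC-1 cells could not be seen or set aside at this depth, with 20 to 104 HMOX1 fragments per Adh library. Susp replicate 2 stood apart for HMOX1, TXNRD1 and PRDX1, and without it the HMOX1 value for Adh against Susp became 0.08.

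GCLM was measured more closely, at 43.0 ± 4.64 CPM in Sep, 36.8 ± 4.79 in Susp and 42.4 ± 3.15 in Adh. Its log2 fold change was 0.20 for Adh against Susp (95% interval -0.06 to 0.46, edgeR adjusted p = 0.353) and -0.02 for Adh against Sep (-0.28 to 0.24). Intervals of this width leave out changes of 1.5 times in either direction. GCLC, at 109 ± 5.76, 101 ± 10.7 and 107 ± 9.21 CPM in Sep, Susp and Adh, lay within its spread in all 3 groups.

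TXNRD1 averaged 267 ± 24.1 CPM in Sep, 247 ± 31.7 in Susp and 290 ± 13.1 in Adh. All Adh libraries (297, 270, 299 and 294 CPM) lay above all Susp libraries (256, 200, 267 and 265 CPM). The difference did not pass (log2 fold change 0.23, 95% interval 0.01 to 0.45, edgeR adjusted p = 0.238). GSR did not overlap either, at 60.7 to 68.9 CPM in Adh and 57.6 to 60.2 CPM in Susp (log2 fold change 0.12, edgeR adjusted p = 0.482). The share of all human genes without overlap was not counted, so nothing is read from the separation of TXNRD1 and GSR. PRDX1 averaged 232 ± 19.9, 260 ± 29.7 and 270 ± 19.5 CPM, with 0.22 for Adh against Sep (0.0038 to 0.43, edgeR adjusted p = 0.205). NQO1 (2.83, 2.98 and 3.69 CPM), SLC7A11 (34.4, 39.7 and 35.6 CPM), GSR (57.7, 58.8 and 64.1 CPM) and SQSTM1 (97.6, 114 and 103 CPM) did not pass either, and the interval of NQO1 was the widest (-0.36 to 1.10 for Adh against Sep).

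**Figure D4:**
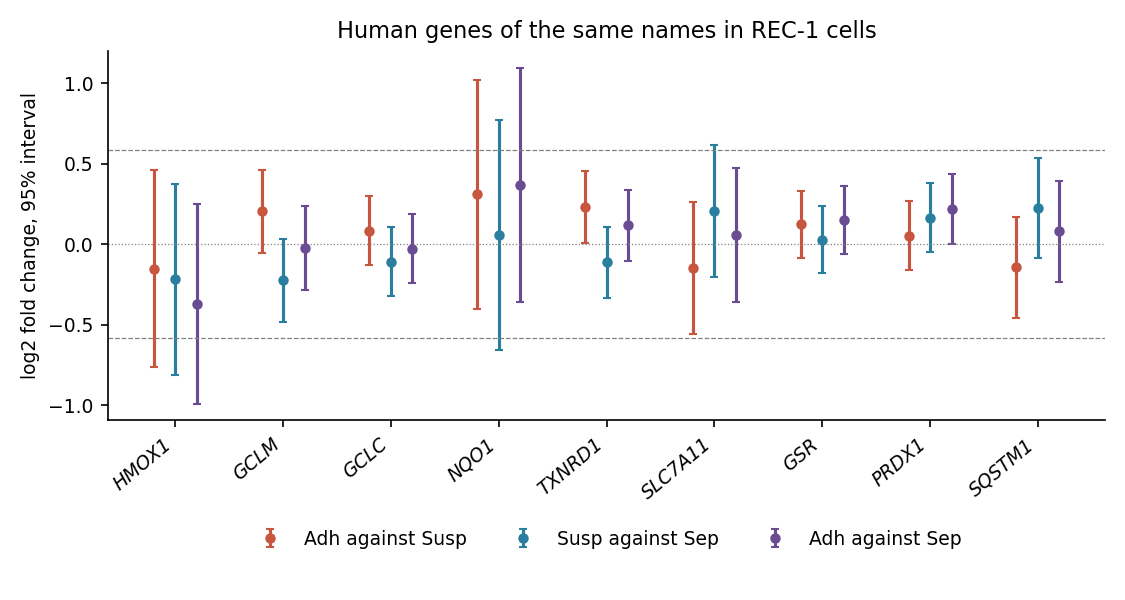
Log2 fold changes with 95% intervals (y axis) of 9 human NRF2 targets in REC-1 cells for Adh against Susp, Susp against Sep and Adh against Sep, each from 4 libraries a group. Dashed lines mark a fold change of 1.5; all points lie between them, and some intervals of HMOX1, NQO1 and SLC7A11 cross them.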

How the data were processed

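The data were RNA-seq gene counts of 16 libraries, grouped by the labels, with 8 used for mouse genes and 12 for human genes. The authors prepared poly(A) RNA libraries with TruSeq RNA v2 reagents, divided read pairs by species with Xenome, aligned them to GRCh38 or GRCm38 with STAR 2.5.1b (unique hits) and counted fragments per gene with featureCounts (Subread 1.5.2). The deposited values were whole-number counts, neither normalized nor filtered, for 49671 mouse and 58051 human genes. Strand settings are not given in the sources used here, so a gene and its antisense partner may share counts. Another 20 columns of the tables, from samples outside these groups, were not used. Replicates differed by more than sampling noise, and all were kept. Susp replicate 2 differed most, with a chi-square per degree of freedom of 52.8 to 57.4 against the other Susp libraries. Among those others it was 6.76 to 10.1. Without Susp replicate 2, 519 human genes were called for Adh against Sep, against 309 with it, and 0 of the listed genes.

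Counts were tested with edgeR 4.0.16 in R 4.3.3 by its quasi-likelihood workflow, which the study also used. The filter (filterByExpr), the TMM scaling and the earlier form of glmQLFit and glmQLFTest were choices made here. MS-5 in coculture against alone was 1 model of the mouse counts, and the REC-1 groups shared another. Calls required a Benjamini-Hochberg adjusted p ≤ 0.05 together with a change of 1.5 times or more. SE is the size of the log2 fold change divided by the square root of the quasi-likelihood F statistic. For the mouse members it is given as a description only. Intervals are the log2 fold change ± the 95% t quantile times SE. Correlations used log2 CPM with a prior count of 2. Exon lengths and positions came from GENCODE (mouse release on GRCm38), which held 49412 of the mouse and 56948 of the human identifiers. Depth limits precision for genes at a few CPM, and intervals do not cover errors of species assignment. On simulated counts, 100 of 100 mouse genes changed at a fold of 2 and 100 of 100 at a fold of 4 were called with 7 false calls. For human Adh against Susp these were 95 of 100 and 100 of 100 with 5 false calls. The changed genes all had a mean above 100 counts per library. Folds below 2 and genes with fewer counts, such as HMOX1 and NQO1, were therefore not covered.

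The members and lists were chosen with earlier results of these data known. The rule named all 10 members in both species, all regulators, up to 3 called genes for each role and companion list, and the 5 genes most like Hmox1 and Gclm. Alternatives were DESeq2 1.42.0, upper-quartile scaling, thinned counts, the low-count filter left off or set to 10 counts in all libraries, exclusion of mitochondrial genes, no fold minimum, the replicate number as a term, a model of Adh and Susp alone and each library left out. Promoter sequences of the members were not analysed here, and 1 marker gene is not reported here.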

Additional observations from a re-analysis of the deposited data

Results flagged for a closer look

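Within groups of 4 libraries, 77 sets of values were checked for a library far from the other 3, of which chance flags about 1 in 20, and 5 stood out, all in human genes. In Susp replicate 2, HMOX1 was at 9.47 CPM where the others were at 5.37 to 5.97, TXNRD1 at 200 CPM against 256 to 267, and PRDX1 at 304 CPM against 241 to 249. GSR in Sep replicate 1 was at 67.2 CPM against 53.8 to 56.1. TXNRD1 in Adh replicate 2 was at 270 CPM against 294 to 298. Of the 5 values, 3 belonged to Susp replicate 2, the library that also differed most from its own group across genes. None of the mouse members had such a library.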

How the results depend on the processing

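Over the mouse genes, 25 were called (20 lower, 5 higher). Without the low-count filter the count was 45, with DESeq2 38 and without a fold minimum 94, and leaving out single libraries gave 8 to 36, with 13 without MS-5 alone replicate 2, 8 without replicate 3, 11 without replicate 4 and 13 without Adh replicate 3. The other NRF2 genes called went from 0 to 3 without a fold minimum, and were 0 to 0 when libraries were left out. Their count at the adjusted p alone (3) was 0 without MS-5 alone replicate 3, 1 without replicate 4 and 5 without Adh replicate 2. Over all mouse genes, 30, 33 and 125 passed in these settings, against 94 with all libraries. The causes were not tested.

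The replicate numbers were not taken as pairs. A correlation above 0.1 between the deviations of same-numbered libraries was required for all 4 numbers, and it was reached for 3 of 4 between Adh and MS-5 alone (r from 0.018 to 0.355) and between Adh and Sep, and for 1 of 4 in the other comparisons. As a hint of pairing from the data, 6 of 8 libraries correlated best with their own number for Adh with MS-5 alone and for Adh with Sep. With the replicate block, 45 mouse genes were called, 0 of the other NRF2 genes (7 at the adjusted p alone, with Maff at 0.0058 and Mafg at 0.0321 in edgeR) and 0 human genes of the list in each REC-1 comparison. Over all mouse genes, 435 passed at the adjusted p alone with the block, against 94 without it.

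In REC-1 cells the count of listed genes called stayed at 0 under every alternative. Among the tested genes, 17 log2 fold changes under alternatives turned, all when a library was left out and none of them called. Of the untested members, Prdx1 turned in 3 settings, 1 of them without the low-count filter, and Slc7a11 in 1. The ranges of the tested genes that turned were -0.0045 to 0.0864 for Nfe2l2, -0.105 to 0.0199 for Keap1 and -0.0129 to 0.129 for Bach1. For Adh against Susp they were -0.335 to 0.0843 for HMOX1 and -0.285 to 0.0019 for SLC7A11. For Susp against Sep they were -0.206 to 0.246 for NQO1 and -0.0090 to 0.114 for GSR. For Adh against Sep they were -0.0788 to 0.0479 for GCLM, -0.0715 to 0.0254 for GCLC and -0.0443 to 0.168 for SLC7A11. Depth limits Slc7a11, HMOX1 and NQO1 most, and SRXN1 could not be tested.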
